A study of Mus musculus with 9 samples.

Results

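The genes described here were 10 members of the integrated stress response that act as, under or beside the transcription factor ATF4: Atf4, Atf5, Ddit3, Trib3, Chac1, Asns, Psat1, Phgdh, Sesn2 and Ppp1r15a. They were picked by symbol, and each had 1 row among the 24411 gene rows of the count table. Poly(A) RNA was sequenced from livers of mice at 3 months of age, with 3 livers in each of 3 groups that the study describes as biological replicates. All 9 mice were homozygous for floxed Atg7, the gene of an enzyme that autophagosome formation needs. The cont. mice (Atg7flox/flox) had no Cre. The Atg7-KO mice (Atg7flox/flox;Alb-Cre) also expressed Cre from the albumin promoter, which removes Atg7 from hepatocytes and leaves it in the other cells of the liver. The Atg7-KO;p62-S351A mice, called S351A here, had the Atg7-KO genotype and, by their titles, 2 copies of a p62 allele with a serine-to-alanine change. In the genotype entry of S351A replicates 2 and 3 the second allele carries another position number, and the titles were followed. The study made the p62 mutants to ask what p62-dependent retention of KEAP1 contributes to NRF2 activity in livers without autophagy, and the stress response genes were read here in the same libraries.

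The integrated stress response begins when eIF2 kinases phosphorylate the translation factor eIF2, which slows protein synthesis while the mRNA of ATF4 is translated better. ATF4 then raises transcription of genes for amino acid supply and redox balance, of the partner factors ATF5 and CHOP (Ddit3), and of the phosphatase subunit GADD34 (Ppp1r15a), which returns eIF2 to its active form. Because ATF4 and ATF5 are controlled at translation, their mRNA levels do not report their protein levels.

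The sequences shown here are the promoters of Atf5, the member that passed the test between groups, and of the 3 members that hold the letters of a CARE, the C/EBP-ATF response element through which ATF4 acts. They are RefSeq promoter windows of build GRCm38.p6 that run from 250 bases before to 50 bases after a gene start. All 10 members were found in the RefSeq table, with 12 windows between them. Both strands were searched for TGATGNAA, read as TTNCATCA on the other strand, and the match is in capitals. Atf5 lies on the minus strand, and the upstream window of its pair spans chr7:44816609-44816908 and held no match. The Asns window is chr6:7693160-7693459 on the minus strand, the Chac1 window chr2:119350992-119351291 on the plus strand, and the Trib3 window chr2:152344011-152344310 on the minus strand. All are written 5′ to 3′ along the gene.
Atf5: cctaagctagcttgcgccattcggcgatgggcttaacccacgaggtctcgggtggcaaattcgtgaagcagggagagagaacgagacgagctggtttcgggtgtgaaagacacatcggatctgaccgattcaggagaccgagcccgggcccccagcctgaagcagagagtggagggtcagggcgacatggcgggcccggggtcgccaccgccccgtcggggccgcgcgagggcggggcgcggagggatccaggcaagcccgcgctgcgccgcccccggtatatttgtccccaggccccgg
Asns: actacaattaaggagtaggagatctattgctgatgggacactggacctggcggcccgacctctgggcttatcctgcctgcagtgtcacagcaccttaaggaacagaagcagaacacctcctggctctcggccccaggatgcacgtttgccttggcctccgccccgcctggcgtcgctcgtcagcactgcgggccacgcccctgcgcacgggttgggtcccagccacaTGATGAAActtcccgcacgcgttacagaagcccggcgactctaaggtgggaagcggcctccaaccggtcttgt
Chac1: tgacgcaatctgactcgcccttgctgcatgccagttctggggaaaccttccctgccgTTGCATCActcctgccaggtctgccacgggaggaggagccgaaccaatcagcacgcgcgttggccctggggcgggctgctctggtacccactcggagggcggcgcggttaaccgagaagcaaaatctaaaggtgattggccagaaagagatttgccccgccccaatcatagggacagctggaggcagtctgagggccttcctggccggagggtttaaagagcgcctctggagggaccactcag
Trib3: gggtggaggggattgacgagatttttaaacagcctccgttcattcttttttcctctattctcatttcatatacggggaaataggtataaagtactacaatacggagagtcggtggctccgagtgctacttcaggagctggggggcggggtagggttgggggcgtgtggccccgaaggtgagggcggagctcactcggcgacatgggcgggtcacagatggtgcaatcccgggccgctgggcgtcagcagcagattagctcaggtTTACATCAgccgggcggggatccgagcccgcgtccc

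Counting the first transcribed base as 1, the match in Asns (asparagine synthetase) covered bases -23 to -16 on the gene strand. Chac1, which encodes an enzyme that breaks down glutathione, held it at -193 to -186 on the other strand. In Trib3, the gene of a pseudokinase that restrains ATF4 and AKT, it lay past the start at 15 to 22. The same letters occurred in 3.97% of the 32851 promoter windows of the table. The cAMP response element TGACGTCA was found in the Ppp1r15a window alone among members, at -12 to -5, and in 1.79% of all windows. TGACNNNGC, the antioxidant response element that NRF2 binds, was in 4 member windows, those of Asns, Phgdh, Ppp1r15a and Sesn2, and in 12.4% of all windows. The ER stress element, CCAAT followed 9 bases later by CCACG, was in none of the 12 windows and in 0.119% of all. A match describes letters in these windows and is not a measured binding site.

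Library totals were 1875314 to 15426566 counts in cont., 1945469 to 3675041 in Atg7-KO and 713835 to 792366 in S351A. The S351A totals lay below all others, so that depth and the mutation in p62 cannot be told apart. Levels are CPM, which are counts relative to the scaled library total, with TMM factors as the scaling, and 3 counts, taken as the floor, equalled 0.269 to 1.91 CPM in cont., 0.696 to 1.37 in Atg7-KO and 3.45 to 3.73 in S351A. Atg7 itself measured 45.1, 57.8 and 42.4 CPM in cont., 30.2, 28.0 and 28.4 in Atg7-KO, and 21.8, 24.8 and 22.2 in S351A, so each Cre-carrying liver was below each cont. liver. The difference was -0.74 ± 0.19 on the log2 scale (SE) in Atg7-KO against cont. (adjusted p = 0.00758, edgeR quasi-likelihood F test, Benjamini-Hochberg), and with total library size in place of TMM factors it was -0.21 (adjusted p = 0.829, with 0.00488 to 0.829 over all alternatives). Liver RNA was recognisable in each group, since the 6 hepatocyte markers summed to 44442 to 99854 CPM in cont., 29971 to 37311 in Atg7-KO and 28189 to 42250 in S351A. The 6 ductular markers summed to 47.5 to 83.3, 819 to 1208 and 720 to 1199 CPM in the same order. In whole liver, fewer cells of a type and less RNA per cell cannot be told apart.

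Only 5 of the 10 members, Atf4, Atf5, Ddit3, Trib3 and Ppp1r15a, had enough counts to be tested among 11199 genes, and these are described first by role. A gene was called when its adjusted p was under 0.05 and its fold change above 1.5. In Atg7-KO against cont., Atf5 fell and was the only member called by edgeR's quasi-likelihood test, with 0 members called higher and 1 lower, while 19.9% of all tested genes were called higher and 18.1% lower. DESeq2 called Atf4 lower too (-0.61 on the log2 scale, adjusted p = 0.034), beside 2216 genes called higher and 1891 called lower. With 5 genes tested, these counts are near the shares of all genes, which in edgeR came to 2226 genes higher and 2027 lower. With total library size in place of TMM factors they were 4284 (38.3%) and 801 (7.15%). In S351A against cont., Atf5 was again the only member called, beside 15.6% of genes called higher and 13% called lower. There total library size left 0 members called, beside 31.2% of genes called higher and 4.57% called lower. The 2 comparisons share the cont. libraries. In S351A against Atg7-KO, edgeR's quasi-likelihood test called 0 of the 5, none had an unadjusted p under 0.05, and DESeq2 and limma-voom also called 0. In that comparison edgeR called 0.00893% of all tested genes, a single gene, and 6.6% had an unadjusted p under 0.05, while DESeq2 called 23 genes (0.205%) higher and 17 (0.152%) lower and limma-voom called 0.

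**Figure D1:**
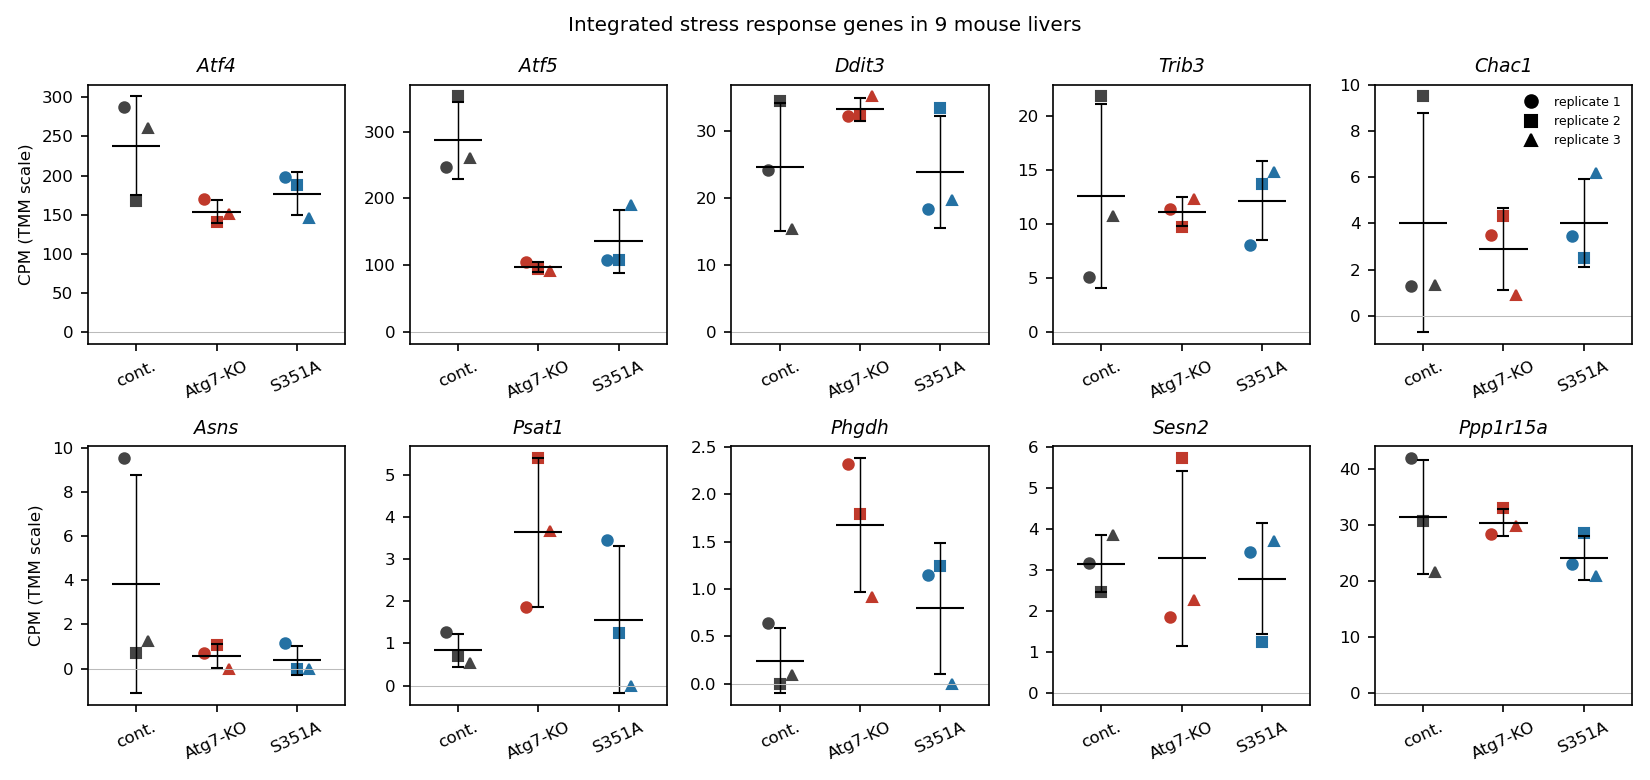
Level of each of the 10 members in CPM on the TMM scale (y axis, linear, each panel with its own range) in cont., Atg7-KO and S351A livers. Each point is 1 liver with its shape giving the replicate number, and horizontal lines with bars are the mean ± SD of 3 livers. The Atf5 values of cont. are 247 to 353 CPM and those of Atg7-KO 90.6 to 105 CPM, whereas the groups of Atf4, Ddit3, Trib3 and Ppp1r15a overlap.

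Atf5, a basic leucine zipper factor that is translated under stress like ATF4 and is abundant in liver, measured 247, 353 and 260 CPM in cont. replicates 1 to 3, 105, 94.0 and 90.6 in Atg7-KO, and 108, 108 and 190 CPM in S351A. Every Atg7-KO and S351A liver was below every cont. liver, a separation found in 24.9% of tested genes for Atg7-KO and in 18.4% for S351A, and S351A replicate 3 stood between the others of its group and cont. Atf5 fell by 1.57 ± 0.26 on the log2 scale in Atg7-KO against cont. (95% interval -2.13 to -1.01, adjusted p = 0.000577, edgeR quasi-likelihood F test, Benjamini-Hochberg). In S351A against cont. the difference was -1.08 ± 0.26 (-1.65 to -0.52, adjusted p = 0.0086). The S351A group did not overlap Atg7-KO and was higher, as 7.67% of tested genes were, but the difference of 0.49 ± 0.26 was not called (-0.08 to 1.05, adjusted p = 0.827) and was 0.16 without S351A replicate 3. Atf5 was called lower in Atg7-KO against cont. under every alternative run, with differences from -1.68 to -1.04. In S351A against cont. the call was lost with total library size, where the difference was -0.60 (adjusted p = 0.111, with 0.000598 to 0.111 over the alternatives), and where the library size omitted the 20 most counted genes (-0.69). In GENCODE M21 on mm10 Atf5 spans chr7:44812256-44816658, and its exons overlap those of Nup62 and Il4i1 on the opposite strand by 82 bases each.

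Of the 6 hepatocyte markers, 5 were called lower, like Atf5, in both comparisons with cont., beside 18.1% and 13% of all tested genes, with a median difference of -1.36 in Atg7-KO and -1.22 in S351A. The exception was Hnf4a, a hepatocyte transcription factor, which was not called and had a mean of 556 CPM in cont. against 724 CPM (Atg7-KO) and 679 CPM (S351A). With total library size 4 of the 6 were called lower and 1 higher in Atg7-KO, and 2 lower and 1 higher in S351A. That scaling called 7.15% of all tested genes lower and 38.3% higher in Atg7-KO, and 4.57% and 31.2% in S351A. None of the 6 hepatocyte markers was at 0. The part of these markers in the Atf5 difference was not tested.

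Atf4, the factor at the centre of the response, measured 287, 167 and 260 CPM in cont., 170, 141 and 151 in Atg7-KO, and 198, 188 and 146 CPM in S351A. Cont. replicates 1 and 3 were above all other livers, and cont. replicate 2 lay among the Atg7-KO and S351A livers. The difference in Atg7-KO against cont. was -0.63 ± 0.24 on the log2 scale (95% interval -1.15 to -0.11), which was just outside the threshold (adjusted p = 0.0532, edgeR quasi-likelihood F test, Benjamini-Hochberg). Without cont. replicate 2 it was -0.84 and was called (adjusted p = 0.0124), and over all alternatives the adjusted p ranged from 0.0124 to 0.772. With total library size it was -0.10. S351A differed from cont. by -0.43 ± 0.24 (-0.95 to 0.10, adjusted p = 0.203) and from Atg7-KO by 0.20 ± 0.24 (-0.32 to 0.73, adjusted p = 0.915). Atf4 lies at chr15:80255184-80257541 with no overlapping exon of another gene.

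Ddit3 encodes CHOP, a partner of ATF4 that promotes cell death when stress lasts. It measured 24.2, 34.5 and 15.4 CPM in cont., 32.2, 32.3 and 35.2 in Atg7-KO, and 18.4, 33.5 and 19.7 CPM in S351A. The Atg7-KO livers were close together, and replicate 2 was the highest liver of both other groups. The difference in Atg7-KO against cont. was 0.46 ± 0.29 on the log2 scale (95% interval -0.17 to 1.10, adjusted p = 0.231, edgeR quasi-likelihood F test, Benjamini-Hochberg). It was called higher without cont. replicate 2 (0.82, adjusted p = 0.0363) and with total library size (0.99, adjusted p = 0.020), within a range of 0.020 to 0.679 over the alternatives. Ddit3 in S351A differed by -0.48 ± 0.33 from Atg7-KO (-1.20 to 0.24, adjusted p = 0.855) and by -0.02 ± 0.34 from cont. (-0.75 to 0.72, adjusted p = 0.978). The gene lies at chr10:127290774-127296288, and its exons share 13 bases with Gm4189 and 68 with Mars on the opposite strand. Mars, whose protein charges tRNA with methionine, was called lower in Atg7-KO against cont., and as no source used here says whether reads were counted by strand, reads of the shared bases cannot be told apart.

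**Figure D2:**
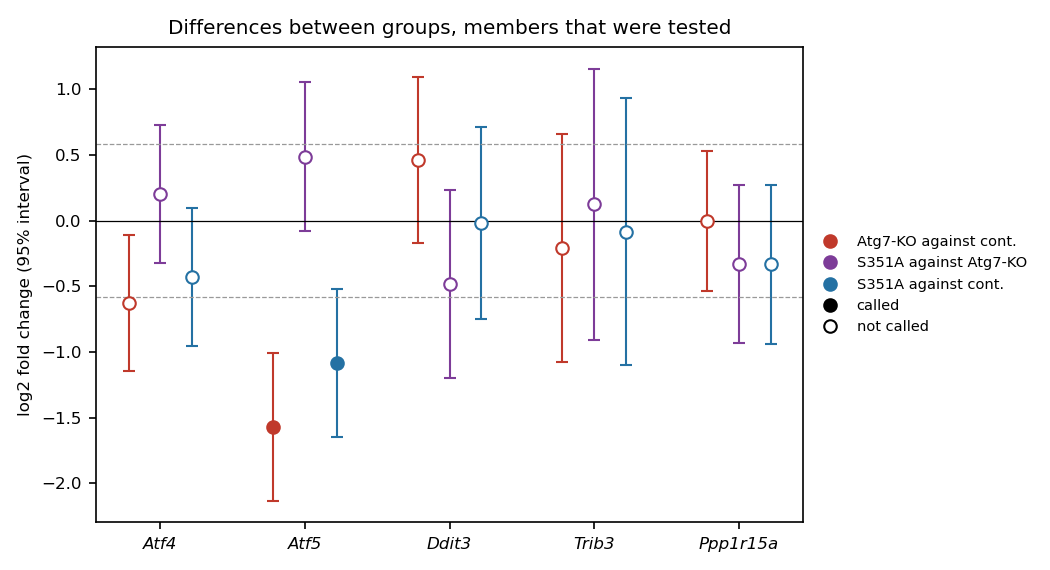
Log2 fold change with its 95% interval (y axis) for the 5 members that passed the filter on low counts (x axis) in the 3 comparisons, which share libraries. Filled points were called, open points were not, and dashed lines mark a fold change of 1.5 in each direction. Atf5 is the only member with filled points, at -1.57 in Atg7-KO against cont. and -1.08 in S351A against cont.

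The members that act back on the response did not pass the test in any comparison. Trib3 measured 5.09, 21.8 and 10.8 CPM in cont., 11.4, 9.69 and 12.4 in Atg7-KO, and 8.04, 13.7 and 14.8 CPM in S351A. The cont. livers held both its lowest and its highest value, so all groups overlapped. The difference in Atg7-KO against cont. was -0.21 ± 0.40 on the log2 scale (95% interval -1.08 to 0.66, adjusted p = 0.715, edgeR quasi-likelihood F test, Benjamini-Hochberg), and the interval for S351A against Atg7-KO was -0.91 to 1.16. Trib3 rested on 7 to 12 counts in the S351A libraries. Its sign in Atg7-KO against cont. turned to 0.32 without cont. replicate 2 and to 0.34 with total library size, and thinning all libraries to the smallest gave -0.86, none of them called. Trib3 lies at chr2:152337422-152344032.

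Ppp1r15a, whose product directs phosphatase 1 to eIF2, measured 42.0, 30.6 and 21.7 CPM in cont., 28.3, 33.0 and 29.7 in Atg7-KO, and 23.0, 28.6 and 21.0 CPM in S351A. The Atg7-KO livers lay within the range of the cont. livers. The difference was -0.0046 ± 0.25 on the log2 scale in Atg7-KO against cont. (95% interval -0.54 to 0.53, adjusted p = 0.990, edgeR quasi-likelihood F test, Benjamini-Hochberg) and -0.33 ± 0.28 in S351A against Atg7-KO (-0.93 to 0.27, adjusted p = 0.882). An interval that wide does not show that the level was the same. Ppp1r15a lies at chr7:45522916-45526268 and shares 12 exonic bases with Tulp2 on the opposite strand.

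The enzymes of serine synthesis were near the floor. Phgdh catalyses the step that commits glycolytic carbon to serine, and it had 1, 0 and 1 counts in cont., 10, 5 and 2 in Atg7-KO, and 1, 1 and 0 in S351A. Psat1, the next enzyme of the pathway, had 2, 2 and 6 counts in cont., 8, 15 and 8 in Atg7-KO, and 3, 1 and 0 in S351A. This equalled 0.915 to 2.32 CPM in Atg7-KO and 0 to 0.636 CPM in cont. for Phgdh, and 1.86 to 5.38 and 0.538 to 1.27 CPM for Psat1. All 3 cont. livers for Phgdh and 2 of 3 for Psat1 were at the floor, which for cont. replicate 1, at 1.91 CPM, lay above some of the Atg7-KO values, so no order of single livers is read from them. Phgdh lies at chr3:98313170-98339990 and Psat1 at chr19:15904678-15947337. Neither gene passed the filter on low counts. With no filter, where 14.2% of 19081 genes were called higher, both were called in Atg7-KO against cont. (adjusted p = 0.0191 for Phgdh and 0.0183 for Psat1, edgeR quasi-likelihood F test, Benjamini-Hochberg). The ratio of the pooled CPM of Atg7-KO to that of cont. was 14.3 for Phgdh, with a counting interval of 3.39 to 127, and 5.2 for Psat1, with 2.49 to 11.9. Pooling weights each library by its size, so in this and later pooled ratios cont. replicate 3 carried most of the cont. side. The unweighted means in Atg7-KO and cont. were 1.68 and 0.242 CPM for Phgdh and 3.63 and 0.838 CPM for Psat1. The mean Atg7-KO level of Phgdh (1.68 CPM) was below the S351A floor and that of Psat1 (3.63 CPM) at it, so a difference between S351A and Atg7-KO was not detectable at this depth.

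Asns (chr6:7675169-7693254), which makes asparagine from aspartate, had 15, 2 and 14 counts in cont., 3, 3 and 0 in Atg7-KO, and 1, 0 and 0 in S351A. This equalled 9.54, 0.704 and 1.25 CPM in cont. and at most 1.15 CPM in the livers with Cre, so cont. replicate 1 stood apart from all other livers. All Atg7-KO and S351A livers were at the floor. With no filter, Asns was not called in Atg7-KO against cont. (adjusted p = 0.0509, edgeR quasi-likelihood F test, Benjamini-Hochberg).

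Chac1 (chr2:119351229-119354381) and Sesn2 (chr4:132492032-132510501), the gene of a sensor that restrains mTORC1, also did not pass the filter on low counts. Chac1 had 2 to 27 counts in cont., 2 to 15 in Atg7-KO and 2 to 5 in S351A, whereas Sesn2 had 5 to 43, 5 to 16 and 1 to 3 in the same order, so that it was at the floor in S351A alone. Chac1 measured 1.27, 9.51 and 1.34 CPM in cont., 3.48, 4.31 and 0.915 in Atg7-KO, and 3.45, 2.48 and 6.17 CPM in S351A, with cont. replicate 2 highest. Sesn2 measured 3.18, 2.46 and 3.85 CPM in cont., 1.86, 5.74 and 2.29 in Atg7-KO, and 3.45, 1.24 and 3.70 CPM in S351A. All groups overlapped for both genes. Without a filter the differences in Atg7-KO against cont. were -0.39 ± 0.59 for Chac1 and -0.08 ± 0.55 for Sesn2 on the log2 scale, and neither was called.

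Cont. replicate 2 held the highest cont. value of Atf5, Ddit3, Trib3 and Chac1 and the lowest of Atf4, Asns and Sesn2. Set against exon length from GENCODE M21, which may differ from the authors' annotation, the cont. levels were 144 ± 28.9 CPM per kb for Atf5 (SD, n = 3), 101 ± 26.7 for Atf4, 14.4 ± 5.58 for Ddit3, 10.7 ± 3.46 for Ppp1r15a and 5.91 ± 4.01 for Trib3. The other 5 members had means between 0.0972 and 2.47 CPM per kb. The cont. livers did not overlap between Atf5 and Atf4 or between Atf4 and Ddit3, and they overlapped between Ddit3 and Ppp1r15a and between Ppp1r15a and Trib3. In Atg7-KO, Atf4 came first at 65.3 ± 6.14 CPM per kb and Atf5 at 48.4 ± 3.73.

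The surrounding pathway was read from lists of 73 further genes, of which 67 were tested. In Atg7-KO against cont., 15 of them (22.4%) were called higher and 16 (23.9%) lower, beside 19.9% and 18.1% of all tested genes, so as one set they were called at shares near those of all genes. In S351A against cont., which shares the cont. libraries, 11 (16.4%) were called higher and 15 (22.4%) lower, beside 15.6% and 13% of all tested genes. The median difference over all tested genes was -0.03 on the log2 scale. Among the 4 eIF2 kinases, 1 was called higher and 0 lower, with a list median of 0.19. Eif2ak2 encodes PKR, which responds to double-stranded RNA, and it measured 83.3, 60.9 and 33.9 CPM in cont. and 137, 109 and 108 in Atg7-KO, without overlap, as in 26.7% of tested genes. It rose by 1.02 ± 0.31 (adjusted p = 0.0202, edgeR quasi-likelihood F test, Benjamini-Hochberg), and the call was lost without cont. replicate 3 (0.71) or Atg7-KO replicate 1 (0.89), and its adjusted p over the alternatives ran from 0.00254 to 0.0868. Eif2ak3, the gene of PERK, which senses unfolded protein in the endoplasmic reticulum, measured 12.1, 5.63 and 13.3 CPM in cont. and 10.4, 11.5 and 8.69 in Atg7-KO, a difference of -0.04 ± 0.35. Eif2ak4, the gene of GCN2, which senses uncharged tRNA, differed by 0.41 ± 0.21 (adjusted p = 0.140).

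Of the 9 subunits of eIF2, of its exchange factor eIF2B and of the constitutive phosphatase, 1 was called higher and 1 lower, with a list median of 0.03. Ppp1r15b, the constitutive counterpart of Ppp1r15a, measured 127, 111 and 116 CPM in cont., 49.6, 42.7 and 54.9 in Atg7-KO, and 35.6, 31.0 and 58.0 CPM in S351A. Every liver with Cre was below every cont. liver, as in 24.9% of tested genes for Atg7-KO and 18.4% for S351A. Ppp1r15b fell by 1.26 ± 0.22 on the log2 scale in Atg7-KO against cont. (adjusted p = 0.000908, edgeR quasi-likelihood F test, Benjamini-Hochberg), a call that held under each alternative run. Eif2b1, a subunit of the exchange factor, rose by 0.64 ± 0.18 in Atg7-KO against cont., and that call was lost with no filter and without Atg7-KO replicate 2 or 3.

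**Figure D3:**
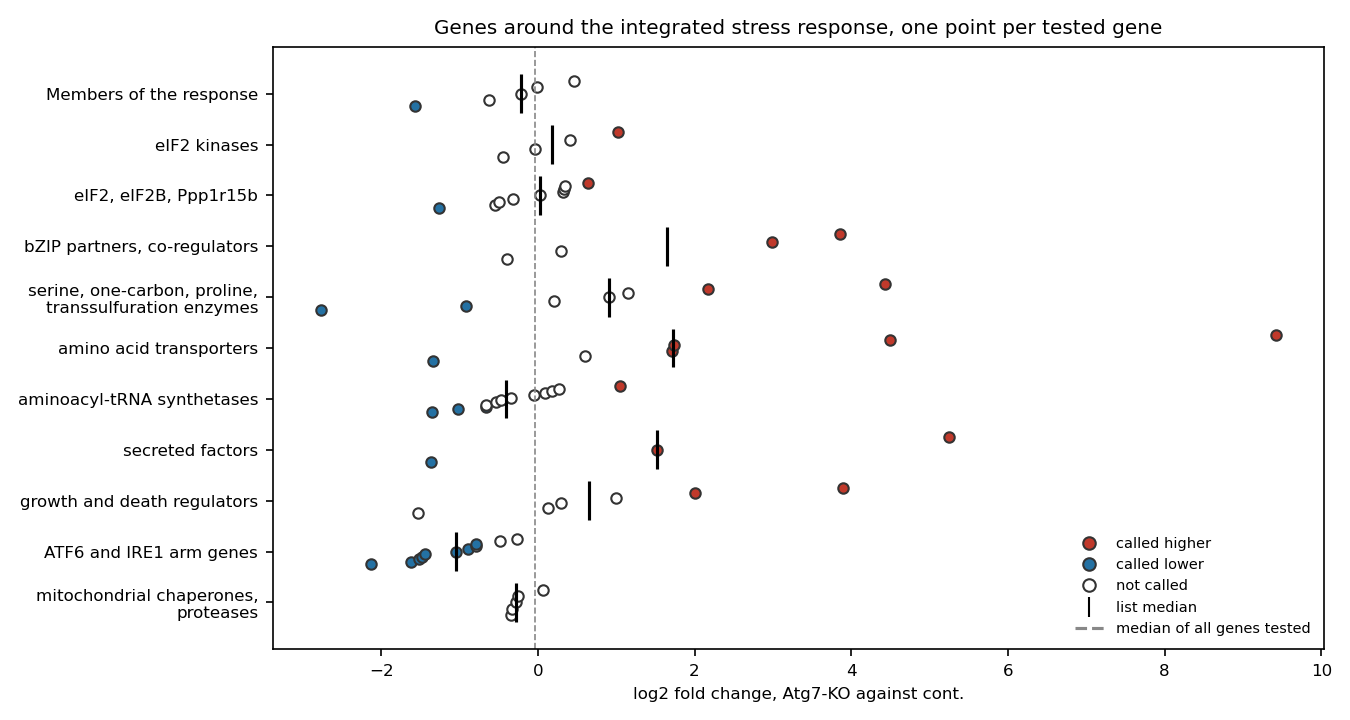
Log2 fold change in Atg7-KO against cont. (x axis) of each tested gene of the members and of the 10 pathway lists (rows). Filled points were called higher or lower, open points were not called, black bars are list medians, and the dashed line is the median of all genes tested at -0.03. Of the ATF6 and IRE1 arm genes 8 of 11 were called lower (5 with total library size), and of the amino acid transporters 4 of 6 were called higher, beside 18.1% of all tested genes called lower and 19.9% called higher.

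The lists of genes that ATF4 is known to act on or with held both genes called higher and genes called lower in Atg7-KO livers, and each count is read beside the 19.9% and 18.1% of all tested genes. Of 4 leucine zipper partners and co-regulators, 2 were called higher and 0 lower, with a list median of 1.65. Atf3, a stress-induced repressor and activator, measured 1.91, 1.76 and 2.33 CPM in cont., 31.3, 35.2 and 26.5 in Atg7-KO, and 9.19, 34.8 and 13.6 CPM in S351A. The cont. livers were all far below the others, and S351A replicate 2 was as high as Atg7-KO. Atf3 rose by 3.85 ± 0.41 on the log2 scale in Atg7-KO against cont. (adjusted p = 2.9e-05, edgeR quasi-likelihood F test, Benjamini-Hochberg). Nupr1, a small chromatin protein of the stress response, measured 0.636, 3.52 and 0.896 CPM in cont. and 14.8, 10.4 and 11.9 in Atg7-KO. It rose by 2.99 ± 0.47 (adjusted p = 0.000433), and after thinning all libraries to the smallest it was not called (1.85).

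Of 9 further enzymes of serine, one-carbon, proline and transsulfuration metabolism, 7 were tested, 2 were called higher and 2 lower, with a list median of 0.91. Mthfd1l, a mitochondrial enzyme that releases formate, had 2, 0 and 4 counts in cont. and 47, 29 and 14 in Atg7-KO, and was called higher. With 2 of 3 cont. livers at the floor, its ratio of pooled CPM was 25.2, with a counting interval of 11.1 to 70.4. Cth, which makes cysteine from cystathionine, measured 313, 354 and 907 CPM in cont. and 62.2, 85.1 and 83.7 in Atg7-KO. In S351A it measured 81.6, 78.2 and 194 CPM, with replicate 3 between the other livers with Cre and cont. Every Atg7-KO liver was below every cont. liver, as in 24.9% of tested genes, and Cth fell by 2.77 ± 0.45 (adjusted p = 0.000538, edgeR quasi-likelihood F test, Benjamini-Hochberg). With total library size the counts of this list became 5 higher and 1 lower, beside 38.3% and 7.15% of all tested genes.

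The amino acid transporters had the highest median of the pathway lists, 1.72 on the log2 scale, with 4 of 6 tested genes called higher and 1 lower. Slc7a11, the cystine transporter that both ATF4 and NRF2 are known to activate, had 0, 2 and 1 counts in cont., 978, 371 and 293 in Atg7-KO, and 103, 11 and 6 in S351A. The Atg7-KO to cont. ratio of pooled CPM was 918, with a counting interval of 314 to 4458, and the gene was called higher (adjusted p = 6.39e-05, edgeR quasi-likelihood F test, Benjamini-Hochberg). Slc1a4, a carrier of serine and alanine, measured 5.09, 5.28 and 6.00 CPM in cont., 122, 156 and 105 in Atg7-KO, and 89.6, 37.3 and 30.9 CPM in S351A. The 3 groups did not overlap, and S351A lay between the others. Of all tested genes, 26.7% had Atg7-KO wholly above cont. and 9.23% had S351A wholly below Atg7-KO. Slc1a4 rose by 4.50 ± 0.38 in Atg7-KO against cont. (adjusted p = 5.37e-06).

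The 12 aminoacyl-tRNA synthetases split, with 1 called higher, 3 lower and a median of -0.40 on the log2 scale. Tars, which charges threonine tRNA, measured 130.3, 104 and 123 CPM in cont. and 50.8, 45.6 and 42.6 in Atg7-KO, and fell by 1.36 ± 0.21 (adjusted p = 0.000366, edgeR quasi-likelihood F test, Benjamini-Hochberg). Gars, which charges glycine tRNA, measured 24.8, 37.7 and 46.6 CPM in cont. and 64.5, 79.0 and 87.4 in Atg7-KO, and rose by 1.04 ± 0.25 (adjusted p = 0.00597). For both genes the groups did not overlap, as in 24.9% of tested genes in the direction of Tars and 26.7% in that of Gars. With total library size 4 synthetases were called higher and 1 lower, beside 38.3% and 7.15% of all tested genes.

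Of 3 tested secreted factors, 2 were called higher and 1 lower, with a median of 1.53 on the log2 scale. Fgf21, a hormone that the liver releases in fasting and stress, had 0, 2 and 1 counts in cont., 60, 20 and 13 in Atg7-KO, and 5, 3 and 2 in S351A. The ratio of pooled levels in Atg7-KO against cont. was 52.0, with a counting interval of 17.3 to 257, and Fgf21 was called higher (adjusted p = 0.000132, edgeR quasi-likelihood F test, Benjamini-Hochberg). Its log2 difference ran from 4.20 to 6.29 when each library was left out in turn. Gdf15, a circulating stress factor, measured 18.4, 29.9 and 10.8 CPM in cont., 37.1, 66.8 and 61.8 in Atg7-KO, and 16.1, 31.0 and 27.1 CPM in S351A. It rose by 1.53 ± 0.36 in Atg7-KO against cont. (adjusted p = 0.00547), and the S351A livers lay close to the range of cont.

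Of 6 regulators of growth and death, 2 were called higher and 0 lower, with a median of 0.65 on the log2 scale. Tnfrsf10b, the TRAIL receptor that CHOP is known to activate, had 3, 4 and 8 counts in cont. and 56, 49 and 41 in Atg7-KO, and rose by 3.90 ± 0.54 (adjusted p = 0.000179, edgeR quasi-likelihood F test, Benjamini-Hochberg). Eif4ebp1, a brake on cap-dependent translation, ranged from 19.1 to 33.9 CPM in cont., from 93.5 to 126 in Atg7-KO and from 65.4 to 78.1 in S351A. The 3 groups did not overlap, and Eif4ebp1 rose by 2.01 ± 0.23 in Atg7-KO against cont. (adjusted p = 4.98e-05). Among all tested genes, Atg7-KO lay wholly above cont. in 26.7% and S351A wholly below Atg7-KO in 9.23%.

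Of 11 tested genes of the ATF6 and IRE1 arms of the unfolded protein response, 8 were called lower and 0 higher in Atg7-KO against cont., beside 18.1% and 19.9% of all tested genes, and the median was -1.04 on the log2 scale. Sdf2l1, an endoplasmic reticulum cochaperone, measured 26.1, 28.2 and 62.4 CPM in cont. and 8.82, 9.69 and 9.15 in Atg7-KO, and fell by 2.13 ± 0.34 (adjusted p = 0.000445, edgeR quasi-likelihood F test, Benjamini-Hochberg). Hyou1, a large chaperone of the same compartment, measured 68.7, 36.3 and 126 CPM in cont. and 25.5, 25.1 and 25.6 in Atg7-KO, and fell by 1.62 ± 0.36 (adjusted p = 0.00374). Its difference ran from -1.98 to -1.02 when each library was left out in turn. The Atg7-KO livers were below all cont. livers for both genes, as in 24.9% of tested genes. With total library size 5 of the 11 genes were called lower, beside 7.15% of all tested genes. Of 5 mitochondrial chaperones and proteases tied to ATF5, edgeR called 0 in this comparison, 0 had an unadjusted p under 0.05, and the median was -0.28.

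Markers of other liver cells moved with these differences in Atg7-KO against cont. All 5 tested ductular markers, 5 of 6 macrophage markers, 4 of 6 stellate cell and matrix markers, 1 of 2 tested lymphocyte markers and 5 of 5 proliferation markers were called higher, while 2 of 5 endothelial and 2 of 3 tested erythroid markers were called lower, beside 19.9% of all tested genes called higher and 18.1% lower. With total library size 6 stellate cell and matrix markers and 2 lymphocyte markers were called higher, 0 endothelial markers were called lower, and the other counts stayed. That scaling called 38.3% of all tested genes higher and 7.15% lower. The summed level of the stellate cell and matrix markers was 56.4 to 131 CPM in cont. and 710.3 to 874 in Atg7-KO, and that of the macrophage markers 157 to 218 and 238 to 296 CPM. Proliferation markers summed to 10.7 to 18.4 and 93.7 to 132 CPM, lymphocyte markers to 6.99 to 19.8 and 44.5 to 60.4 CPM, endothelial markers to 85.8 to 171 and 68.9 to 92.1 CPM, and erythroid markers to 322 to 898 and 93.0 to 204 CPM. In S351A the sums were 516 to 712 CPM for stellate cell and matrix markers, 203 to 233 for macrophage, 81.4 to 95.6 for proliferation, 28.4 to 37.3 for lymphocyte, 64.6 to 121 for endothelial and 151 to 217 for erythroid markers. The macrophage and lymphocyte sums of S351A lay below those of Atg7-KO without overlap. Of all these markers Hba-a1 alone was listed at 0 in every library. Their part in the differences of Atf5 and of the pathway genes was not tested.

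**Figure D4:**
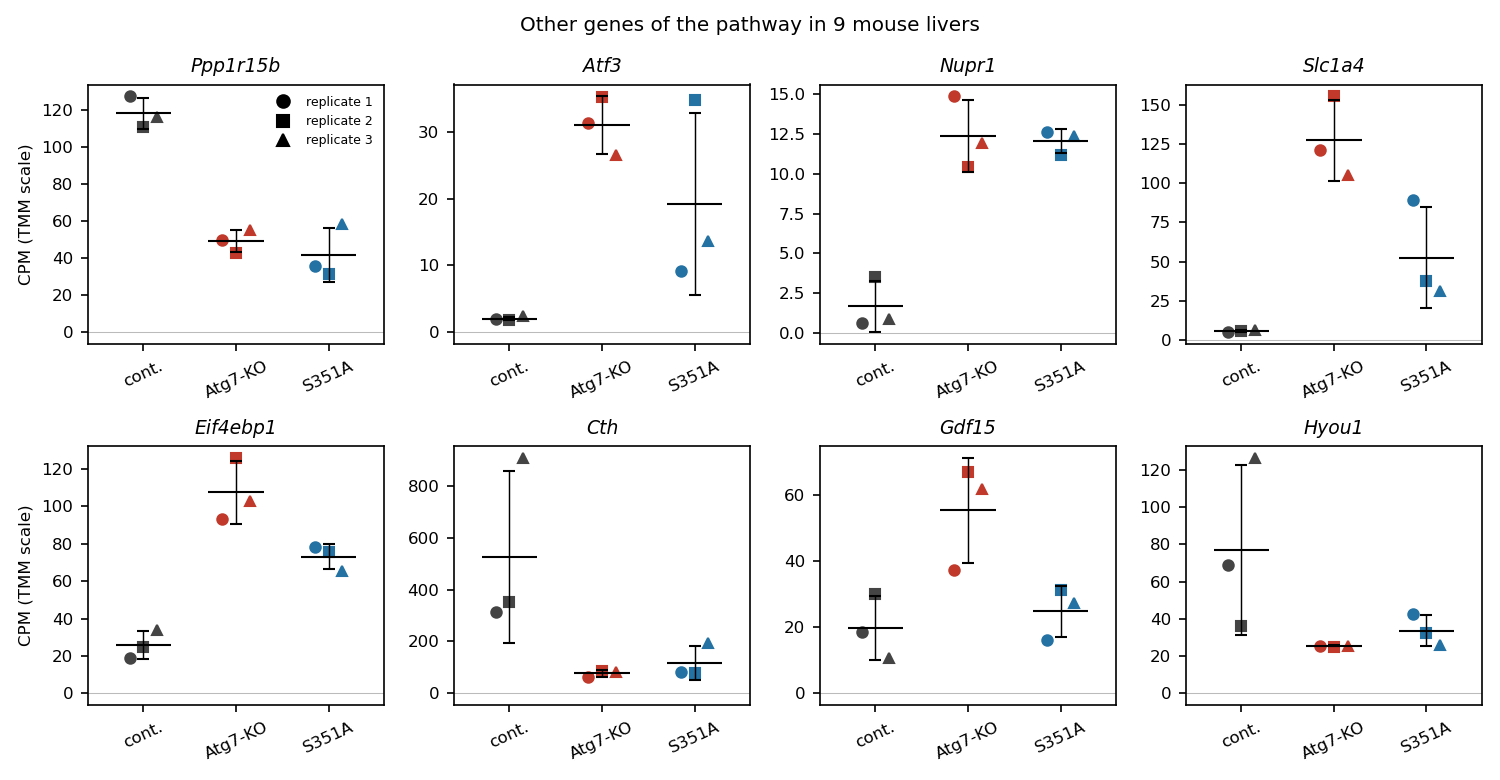
Level of 8 pathway genes, picked by hand from the larger number that the naming rule chose, in CPM on the TMM scale (y axis, linear, each panel with its own range) in cont., Atg7-KO and S351A livers. Points are livers, with the shape giving the replicate number, and lines with bars are the mean ± SD of 3 livers. Slc1a4 and Eif4ebp1 in S351A lie between the other groups, whereas Ppp1r15b and Cth in S351A overlap Atg7-KO, with Cth of S351A replicate 3 at 194 CPM above every Atg7-KO liver.

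Between S351A and Atg7-KO, edgeR's quasi-likelihood test called none of the 67 pathway genes, 5 (7.46%) had an unadjusted p under 0.05 beside 6.6% of all tested genes, limma-voom called 0 and DESeq2 called 1, Hsp90b1, as higher, beside 0.205% of all tested genes. Without the filter on low counts, 3 genes were called lower in S351A, and these were Slc7a11, Slc1a4 and Gdf15. In that fit 37 of 19081 genes, or 0.194%, were called lower. All 3 had been called higher in Atg7-KO against cont., a comparison that shares the Atg7-KO libraries. Slc7a11 measured 227, 133 and 134 CPM in Atg7-KO and 118, 13.7 and 7.40 CPM in S351A. Every S351A liver was below every Atg7-KO liver, as in 9.23% of tested genes, but S351A replicate 1 was close to Atg7-KO. The fitted difference of Slc7a11 was -1.81 ± 0.67 on the log2 scale (adjusted p = 0.696, edgeR quasi-likelihood F test, Benjamini-Hochberg). Without S351A replicate 1 it was -3.97 and was called (adjusted p = 0.0341, with 0.00159 to 1 over the alternatives). Slc1a4 differed by -1.27 ± 0.33 (adjusted p = 0.382) and Gdf15 by -1.15 ± 0.40 (adjusted p = 0.686), and neither group pair overlapped. Of the 5 tested members in S351A against Atg7-KO, Atf5, Atf4 and Trib3 had fitted differences above 0 and Ddit3 and Ppp1r15a below 0, and none was called.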

How the data were processed

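The members and gene lists were chosen with earlier results of these data known. The authors trimmed reads with Trim Galore, mapped them to mm10 with STAR and deposited RSEM expected counts, which are estimated counts per gene without scaling between libraries. The versions, annotation and strand setting are not given in the sources used here. Between 4.40% and 7.75% of values per library were not whole, and all were rounded. The labels name an RNeasy kit for extraction and the study's methods TRIzol.

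Tests were run in edgeR 4.0.16 (R 4.3.3). Genes were kept by filterByExpr (minimum count 10, minimum total 15), which left 11199, and TMM factors scaled the libraries. All 9 libraries entered a single quasi-likelihood fit with group terms, and 3 comparisons were tested, with Benjamini-Hochberg adjustment over all genes tested. SE and 95% intervals are those implied by the test, two-sided. The study used DESeq2 (version 1.42.0 here), kept as an alternative beside limma-voom (limma 3.58.1), other scalings, filters and covariates, thinning and leaving out each library. Log2 CPM used a prior count of 2. Floors and counting intervals hold counting error alone, as PCR copies could not be told from separate molecules.

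All members were named. From each of the 10 pathway lists, the rule named up to 2 called genes with the largest change in Atg7-KO against cont., always Eif2ak3, Eif2ak4 and Slc7a11, any list gene called in S351A against Atg7-KO, and for each tested member the gene most like it. Mars, Hsp90b1 and Hnf4a were added after their values were seen. The p-values measure the spread between these livers. Replicate numbers were taken as pairs where r was above 0.1 for every same-numbered pair of libraries, which S351A and cont. met (r = 0.235, 0.175 and 0.160 for replicates 1 to 3, from the data and not from the labels), and there the replicate block changed no call of a member. The fits were tested on simulated counts.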

Additional observations from a re-analysis of the deposited data

How the results depend on the processing

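Of the 1266 values recomputed under the alternatives, 1156 were classed as unchanged. For the difference of a gene this meant the same direction and the same side of the threshold. The total also holds counts of called genes and mean levels, which were judged by how far they moved, and 34 of these were classed as moved. The alternative with the adjusted p alone reused the differences of the fit described above, so no direction could change there. Total library size raised the median difference of all genes from cont. by 0.55 on the log2 scale in Atg7-KO and by 0.49 in S351A, and leaving the 20 genes with most counts out of the library size raised it by 0.43 and 0.39. Values with these scalings are read relative to these shifts, and other causes of the changes were not tested. Depth limits the S351A libraries most, and 5 members did not pass the filter on low counts and were tested only with no filter.

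In Atg7-KO against cont., 1 member was called in the fit described above, 2 with total library size or without the 20 top genes (Atf5 and Ddit3), 2 with DESeq2 or the replicate block (Atf5 and Atf4), 4 with no filter (Atf4, Atf5, Phgdh and Psat1), and 1 to 3 when each library was left out in turn (3 without cont. replicate 2, 2 without S351A replicate 3). Beside these, 2226 of 11199 genes were called higher and 2027 lower in the fit described above. Total library size gave 4284 and 801, and leaving out the 20 top genes 3777 and 976. DESeq2 gave 2216 and 1891, and the replicate block 2297 and 2016. With no filter 2714 and 2473 of 19081 genes were called, and with libraries left out 1786 to 2372 and 1452 to 2165. In S351A against cont., 1 member was called, 0 with total library size or without the 20 top genes, and 1 whichever library was left out. There total library size called 3498 genes higher and 512 lower, and leaving out the 20 top genes 3040 and 638. With libraries left out the counts were 1206 to 1926 higher and 887 to 1650 lower. In S351A against Atg7-KO no alternative called a member. The replicate block gave Atf4 a difference of -0.61 and changed no other call of a member. Same-numbered libraries of Atg7-KO and cont. deviated together with r = 0.248, 0.0913 and -0.0415, and those of S351A and Atg7-KO with r = 0.306, 0.0738 and 0.0919, so in these comparisons the numbers were not taken as pairs. Atg7 differed between Atg7-KO and cont. by -0.21 with total library size and by -0.31 without the 20 top genes, and between S351A and cont. by -0.59 with total library size, none of them called. Leaving out libraries gave -0.85 to -0.60 for Atg7 in Atg7-KO against cont. and -1.19 to -0.94 in S351A against cont.

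Atf4 in Atg7-KO against cont. was called with DESeq2 (-0.61) and no filter (-0.68), and leaving out libraries gave -0.84 to -0.50. Its difference in S351A against cont. was 0.047 with total library size. Atf5 in S351A against cont. was not called with total library size (-0.60) or without the 20 top genes (-0.69), and leaving out libraries gave -1.43 to -0.92. Ddit3 in Atg7-KO against cont. was called with total library size (0.99) and without the 20 top genes (0.89), and leaving out libraries gave 0.15 to 0.82. Ddit3 in S351A against cont. was 0.45 with total library size, 0.36 without the 20 top genes, 0.059 when a minimum of 10 counts was set for every library, 0.031 with limma-voom, 0.047 with the 6 compared libraries alone, 0.0018 with the replicate block and 0.0097 after thinning, and leaving out libraries gave -0.37 to 0.33. Trib3 in Atg7-KO against cont. was 0.34 by total library size, 0.23 without the 20 top genes, and leaving out libraries gave -0.51 to 0.32. Trib3 in S351A against cont. was 0.41 with total library size, 0.31 without the 20 top genes, 0.069 with limma-voom and 0.12 after thinning, and leaving out libraries gave -0.39 to 0.44. For Trib3 in S351A against Atg7-KO leaving out libraries gave -0.048 to 0.35 and thinning gave 0.98. For Atf5 in that comparison leaving out libraries gave 0.16 to 0.63. Ppp1r15a in Atg7-KO against cont. was 0.0076 with RLE factors, 0.51 with total library size, 0.42 without the 20 top genes, 0.091 with the minimum of 10 counts, 0.0021 with DESeq2, 0.042 with limma-voom, 0.044 with the 6 libraries alone, 0.0043 with the replicate block and 0.23 after thinning, and leaving out libraries gave -0.25 to 0.22. Ppp1r15a in S351A against cont. was 0.13 by total library size and 0.047 without the 20 top genes. None of the values of Ddit3, Trib3 and Ppp1r15a above 0 in S351A against cont. was called.

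With total library size the mean levels moved to 175 CPM for Atf4, 109.8 for Atf5, 37.8 for Ddit3, 12.7 for Trib3 and 34.5 for Ppp1r15a in Atg7-KO, and to 226 for Atf5 in cont. The same scaling, which called 38.3% of all tested genes higher and 7.15% lower in Atg7-KO against cont. and 31.2% and 4.57% in S351A against cont., changed list counts in Atg7-KO against cont. to 2 eIF2 kinases higher, 4 eIF2 and eIF2B genes higher, 3 leucine zipper partners higher, 5 transporters higher, 5 metabolic enzymes higher and 1 lower, 4 synthetases higher and 1 lower, 0 secreted factors lower, 4 growth and death regulators higher, 5 ATF6 and IRE1 arm genes lower and 1 mitochondrial chaperone or protease higher. In S351A against cont. it changed them to 2 kinases higher, 3 eIF2 and eIF2B genes higher, 3 leucine zipper partners higher, 1 metabolic enzyme lower, 0 transporters lower, 2 synthetases higher and 1 lower, 0 secreted factors lower, 2 ATF6 and IRE1 arm genes lower and 0 mitochondrial genes lower.

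Among pathway genes, Eif2ak3 in Atg7-KO against cont. was 0.52 with total library size, 0.40 without the 20 top genes, 0.0065 with the 6 libraries alone, 0.052 with the replicate block and 0.11 with sex as a covariate, and leaving out libraries gave -0.34 to 0.29. Eif2ak4 in that comparison was called with total library size (0.95) and without the 20 top genes (0.85). In S351A against Atg7-KO, thinning gave -0.13 for Eif2ak4 and 0.21 for Nupr1, and leaving out libraries gave -0.52 to 0.071 for Eif2ak3, -0.021 to 0.29 for Eif2ak4, -0.16 to 0.11 for Nupr1 and -0.063 to 0.31 for Tars. Eif2ak2 (0.93) and Nupr1 (1.85) were not called in Atg7-KO against cont. after thinning, nor was Eif2b1 with no filter (0.59).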

Other observations

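The genes whose log2 CPM was most like that of a member over the 9 libraries are given as a description, since the libraries share groups and differ in depth. They were Fpgs for Atf5 (Pearson's r = 0.991), Myo6 for Atf4 (r = 0.958), Ints4 for Ddit3 (r = 0.952), Dnttip2 for Ppp1r15a (r = 0.951) and 9030619P08Rik for Trib3 (r = 0.937). Each of these was the highest r over all tested genes outside the members, so r between members cannot be set against them. Over pairs of tested members r ran from -0.60, for Atf4 with Trib3, to 0.60, for Ddit3 with Ppp1r15a. Atf4 and Atf5 had r = 0.48 over the same 9 libraries.

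By the sex-linked genes, replicate 1 of each group was male and replicate 2 female, while replicate 3 was male in cont. and female in Atg7-KO and S351A. With sex as a covariate, the calls of the 5 tested members were those given above.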
